A study of Mus musculus with 6 samples.

Results

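The hepatic non-parenchymal cells of wild type mice, taken 6 h after acetaminophen, are described here from 3 libraries, chosen by their titles out of 6 in the series. All 3 came from male wild type mice that had received 400 mg/kg of acetaminophen into the peritoneum, and total RNA of the liver fraction was sequenced after depletion of ribosomal RNA. The other 3 libraries of the series are of SRA-/- mice, which lack scavenger receptor A, given the same treatment. They enter no value below. The wild type libraries serve as the reference of that study, and the sources used here do not name the strain or age of the mice. The titles call the replicates biological, and nothing else says that each came from a separate animal. No untreated or vehicle-treated mice were analysed here, so every value is a level after acetaminophen and not a response to it, and no difference between groups was tested.

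Non-parenchymal cells are the liver cells that remain when hepatocytes are removed. They comprise the fenestrated sinusoidal endothelium, which clears waste macromolecules from blood, the Kupffer cells, which are resident macrophages of the sinusoids, the vitamin A-storing stellate cells, and circulating or resident leukocytes. Acetaminophen overdose injures hepatocytes around the central vein, where the drug is oxidised to a reactive metabolite that consumes glutathione. The injured hepatocytes release signals that endothelial cells and macrophages sense, and neutrophils and monocytes then enter the tissue.

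Levels are given on 2 scales. CPM are a gene's counts scaled so that each library sums to 1000000. TPM are counts divided by the gene's summed exon length and then scaled to the same sum, and this per-length scale is used to compare genes with each other. A gene was called detected where it reached 1 CPM in each of the 3 libraries. Values in a series of 3 are in the order of replicates 1, 2 and 3.

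Gene counts summed to 32520128, 25061773 and 31172636, and 14792 of 53546 genes (27.6%) were detected. Replicate 1 was at the end of the range on several measures. Its share of mitochondrial genome counts was the largest (19.8%, against 9.95% and 16.1%), but replicate 2 lay farthest from the others. Its share of counts from hepatocyte markers was also the largest (8.76%, against 7.41% and 3.72%), but there replicate 3 lay farthest. Replicate 1 had the lowest level of the 3 for 61.5% of detected genes by CPM. With TMM factors, which centre the libraries on the bulk of genes, that share was 41.7%, and replicate 3 was above replicate 1 for 50.1% of genes in place of 67.9%. Between replicates 3 and 1, 15.2% of detected genes differed by more than 2-fold on the log2(CPM + 1) scale, against 4.90% between replicates 2 and 1 and 1.59% between replicates 3 and 2. The common biological coefficient of variation was 0.281. Transcripts of other organs marked single libraries, adrenal ones in replicate 2 and muscle ones in replicate 3, and their values follow the account of the liver cells. The part of these library differences in the levels below was not tested, so values are given per library.

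A few transcripts made up much of the RNA. Of the mean abundance 19 genes held 50% and 3836 held 90%. The most abundant by mean was CT010467.1, which partly overlaps the 18S ribosomal RNA gene Rn18s, at 98833, 149097 and 139851 TPM. In replicate 1 the mitochondrial ribosomal RNA mt-Rnr2 was higher, at 127598 TPM. Other mitochondrial transcripts followed, among them mt-Co1, a subunit of cytochrome oxidase, at 46257, 42023 and 66208 TPM. Albumin was the most abundant nuclear messenger RNA. Alb (chr5:90608756-90624461, mm39) stood at 49799, 43722 and 18136 TPM, and replicate 3 was the lowest.

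The 20 most abundant nuclear genes were Alb, Apoe, Apoa1, Malat1, Serpina3k, Apoa2, Trf, Scarna2, Rmrp, Mup3, Ahsg, Serpina1e, Hpx, Hp, C3, Rn18s, Rbp4, Rn7s1, Neat1 and Gc. Most encode plasma proteins that hepatocytes secrete, and 7 of the 20 are members of the hepatocyte marker list. Apoe, a lipoprotein component that macrophages and stellate cells also make, was next at 14968, 19646 and 11928 TPM. Malat1, a long nuclear RNA, was at 4808, 7225 and 8188 TPM. Of these genes Malat1, Scarna2 and Rn7s1, none of which encodes a protein, were lowest in replicate 1, beside 61.5% of all detected genes by CPM. Alb, Serpina3k, Mup3 and Gc were highest there, beside 22.2%. Other non-coding genes did not keep to the first order: Neat1 was highest in replicate 1 at 2586, 2465 and 1690 TPM. Neither Rmrp nor Rn18s was lowest in replicate 1.

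**Figure D1:**
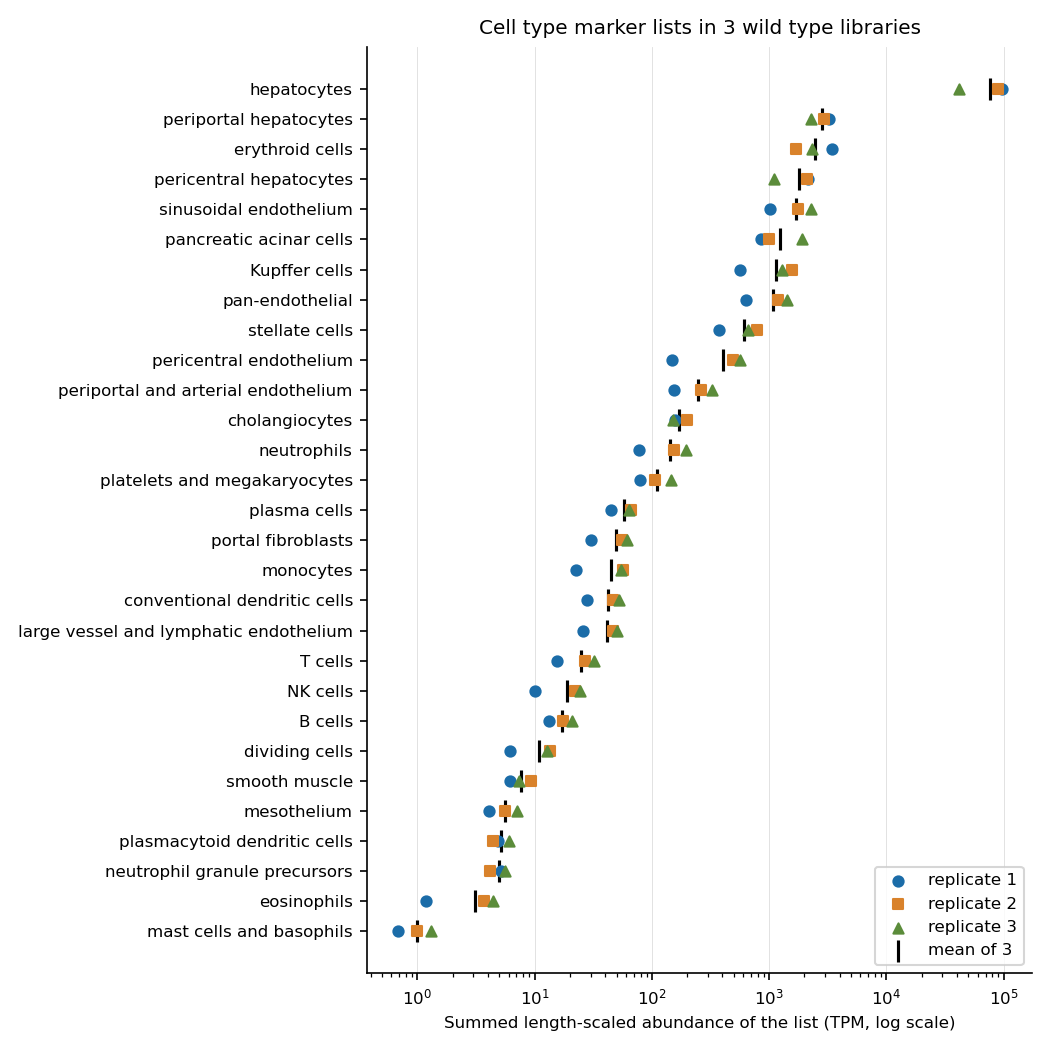
Summed abundance of 29 cell type marker lists in the 3 wild type libraries (TPM, log scale), ordered by mean; points are libraries and black bars their means. Hepatocyte markers lead at 41550 to 96378 TPM, followed after a wide gap by other hepatocyte lists, erythroid genes, sinusoidal endothelium, pancreatic acinar genes and Kupffer cells.

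Markers of all the main non-parenchymal types were present, and hepatocyte transcripts were present beside them at far higher levels. In bulk RNA fewer cells of a type and less RNA per cell cannot be told apart. A summed level depends on which genes a list holds, so no sum is a share of cells. The 16 hepatocyte markers, all detected, summed to 96378, 90267 and 41550 TPM and took 8.76%, 7.41% and 3.72% of counts (mean 6.63% ± 2.61, SD, n = 3). The plot of marker lists shows the order of the 29 lists. Of the 28 neighbouring pairs in that order, 26 had overlapping ranges over the libraries, and 11 of these 26 kept the same order in all 3 libraries.

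Sinusoidal endothelium was the most abundant non-parenchymal list. Its 11 markers were all detected and summed to 1022, 1770 and 2260 TPM (1684 ± 624, SD, n = 3). Stab2 (chr10:86677062-86843889, mm39), a scavenger receptor that clears hyaluronan, was at 138, 228 and 308 TPM. The C-type lectin gene Clec4g was at 112, 234 and 332 TPM, and the hyaluronan receptor gene Lyve1 at 114, 230 and 301 TPM. All 11 markers were lowest in replicate 1, by CPM and with TMM factors, beside 61.5% and 41.7% of all detected genes. By CPM all 11 were also highest in replicate 3, and the share of all genes in that full order is not given here. Genes of endothelium in general followed: the 12 genes of the pan-endothelial list, all detected, summed to 640, 1192 and 1433 TPM. Their leading member was Ptprb, a phosphatase that acts on the receptor Tie2, at 150, 259 and 349 TPM.

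Lists for parts of the vascular bed were detected as well. Among 6 genes of the pericentral endothelium, Thbd, which encodes the anticoagulant receptor thrombomodulin, stood far above the others at 118, 440 and 500 TPM. Wnt2, a signal that maintains the gene programme of pericentral hepatocytes, was at 16.0, 21.5 and 31.1 TPM, while Rspo3, which amplifies such signals, was at 2.49, 6.43 and 7.88 TPM. On the periportal and arterial side Ltbp4, a matrix protein that binds latent TGF-beta, led at 104, 178 and 201 TPM. Thbd thus spread more widely than the other leading endothelial markers: its ratio to Stab2 was 0.855, 1.93 and 1.63. Selp, the adhesion molecule P-selectin, was at 3.84, 15.5 and 12.2 TPM.

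Kupffer cell markers were the next non-parenchymal list by mean, with 11 of 12 detected and sums of 569, 1571 and 1297 TPM (1146 ± 518, SD, n = 3). They were above the pan-endothelial list in replicate 2 only. Clec4f (chr6:83621524-83633169, mm39), a lectin of mouse Kupffer cells, was at 143, 371 and 391 TPM. Cd5l, a secreted protein of tissue macrophages, was at 142, 494 and 374 TPM, and Timd4, a receptor for dying cells that marks long-resident Kupffer cells, at 12.5, 45.2 and 35.2 TPM. Replicate 1 was the lowest for each of these.

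A pair of members departed from the rest of the Kupffer list. Marco, a scavenger receptor for bacteria and particles, was at 17.1, 171 and 46.5 TPM, so that its ratio to Clec4f was 0.119, 0.459 and 0.119, and replicate 2 stood alone. C6, a complement component that hepatocytes also make, was at 124, 116 and 99.4 TPM. It was lower in replicate 3 than in replicate 1, as were all 16 hepatocyte markers and 32.1% of all detected genes. Which cells gave the C6 reads was not tested. Cd209f and Kcna2, further markers of the list, stayed under 1 TPM in every library.

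Msr1 (chr8:40034726-40095714, mm39) is the gene of scavenger receptor A, which takes up modified lipoproteins and other polyanionic ligands. No SRA-/- library was used, so its level here does not check the genotype label. Its counts were 1123, 1936 and 3838, or 12.7, 31.1 and 46.9 TPM, so the transcript was present in all 3 libraries and lowest in replicate 1. It was not the leading scavenger receptor. Lrp1, an endocytic receptor of hepatocytes and macrophages, was at 344, 399 and 264 TPM, and Mrc1, the mannose receptor, at 104, 227 and 311 TPM. Cd163, which takes up haemoglobin bound to haptoglobin, was at 34.9, 126 and 145 TPM. All 16 scavenger and clearance receptors were detected, and 13 of them were higher in replicate 3 than in replicate 1, beside 67.9% of all detected genes.

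All 12 stellate cell markers were detected, with sums of 376, 795 and 656 TPM. The secreted matrix protein gene Ecm1 led at 201, 449 and 334 TPM. The collectin gene Colec11 followed at 49.4, 124 and 122 TPM. Lrat, the enzyme that esterifies vitamin A for storage, was at 7.03, 9.93 and 11.8 TPM. Genes of fibre-forming collagens, which activated stellate cells and portal fibroblasts make, were low: Col1a1 was at 5.30, 12.4 and 14.6 TPM and Col3a1 at 5.85, 8.94 and 8.08 TPM. Smooth muscle actin, Acta2, the usual sign of stellate cell activation, was at 1.31, 2.37 and 0.812 TPM.

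The neutrophil list was the highest of the leukocyte lists other than Kupffer cells, and whether such cells had newly entered was not tested. It had 10 of 12 genes detected and sums of 78.2, 155 and 194 TPM. S100a9, a subunit of the calprotectin complex, was at 11.97, 33.6 and 45.3 TPM, and its partner S100a8 at 5.38, 9.54 and 12.3 TPM. Hdc, the histamine-making enzyme, was the highest member at 36.6, 40.4 and 42.3 TPM and varied least. Ly6g, the usual surface marker of mouse neutrophils, had counts of only 1, 0 and 3. Genes of granules that are made in the bone marrow were low: Prtn3, the only one of 6 detected, was at 1.70, 2.41 and 1.88 TPM, and Mpo at 0.168, 0.0892 and 0.136 TPM.

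Monocyte genes were lower, at sums of 22.6, 56.3 and 55.1 TPM with 6 of 11 detected. Plac8 led at 11.7, 28.4 and 25.5 TPM, and Treml4, a marker of patrolling monocytes, was at 5.21, 17.0 and 15.4 TPM. Some markers of classical inflammatory monocytes were low. Ccr2, the receptor that brings these cells out of the marrow, was at 0.404, 0.452 and 0.699 TPM. Ly6c2 was at 0.813, 0.966 and 0.537 TPM, and Chil3 at 0.440, 1.87 and 4.51 TPM. These were picked from the 11 genes, whose median level was 0.772 TPM, and do not by themselves give the level of classical cells. Lymphocyte lists were of the same low order. T cell genes summed to 15.6, 26.8 and 32.3 TPM, NK cell genes to 10.1, 22.1 and 24.6 TPM, and B cell genes to 13.2, 17.3 and 21.03 TPM. Among them Gzma, a protease of killer lymphocytes, reached 2.86, 7.09 and 7.16 TPM, and Cd79a, a part of the B cell receptor, 2.56, 3.84 and 4.63 TPM. Platelet and megakaryocyte genes were higher than those of any lymphocyte type, at 78.7, 106 and 146 TPM, with the chemokine gene Pf4 at 15.5, 29.9 and 37.7 TPM.

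Some leukocyte lineages had next to no signal. None of 8 genes of mast cells and basophils and none of 4 genes of eosinophils reached 1 CPM in each library, although the granule gene Prg2 had counts of 12, 28 and 44. Mcpt8, Prss34 and Epx, granule genes of these cells, had 0 counts in every library. The same held for Tnfrsf17, a receptor of plasma cells, although the antibody light chain gene Igkc was at 23.9, 32.2 and 32.6 TPM. A count of 0 allows up to 6 counts, the mates of 3 fragments, which is 0.185, 0.239 and 0.192 CPM in the 3 libraries, with counting error alone considered. Dividing cells left little trace: Mki67, a marker of cycling cells, was at 1.21, 3.69 and 3.72 TPM.

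**Figure D2:**
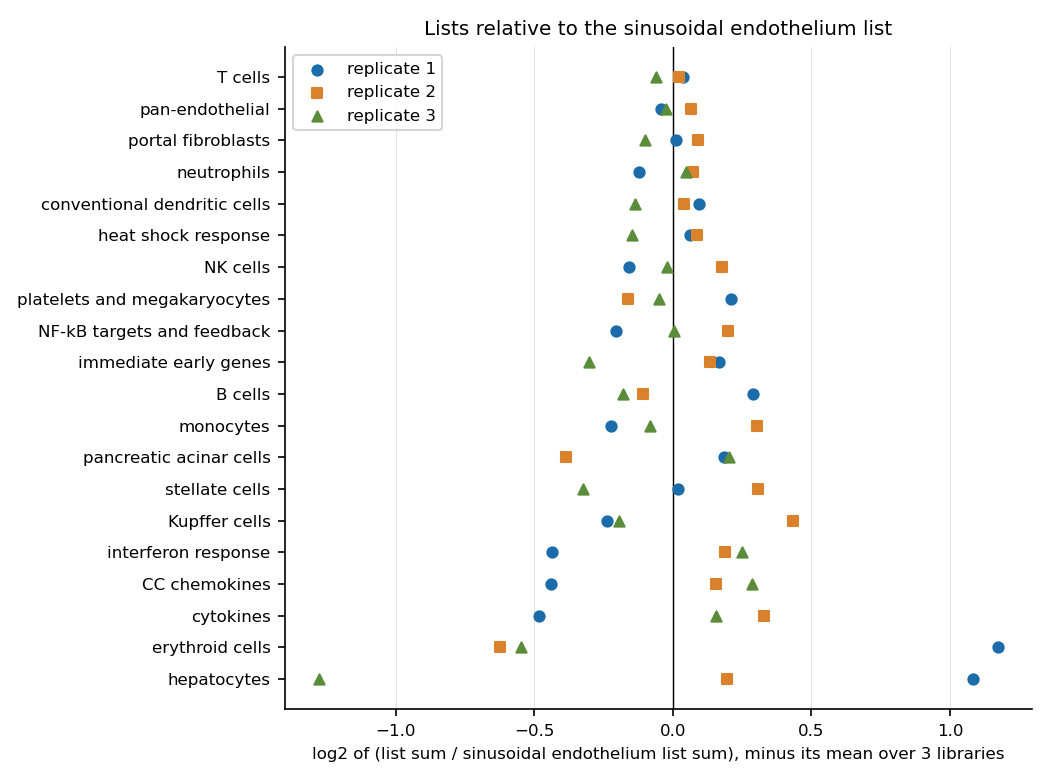
Summed TPM of 20 gene lists divided by that of the sinusoidal endothelium list, on the log2 scale and centred on the mean of the 3 libraries. Lists at the top keep nearly the same proportion in all libraries (T cells, 1.07-fold between the highest and lowest), and hepatocytes (5.13-fold) and erythroid genes (3.48-fold) at the bottom do not.

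Set against sinusoidal endothelium, 18 of 23 non-parenchymal lists spread less between libraries than their own sums did, and 5 spread more. The library total cancels in such a ratio, so a smaller spread alone does not show that cell types kept their proportions. Relative to the sinusoidal endothelium list, the pan-endothelial list was at 0.626, 0.674 and 0.634, a spread of 1.08-fold. Over 11 non-parenchymal lists, the pan-endothelial one included, the ratio varied by 1.07-fold for T cells to 1.59-fold for Kupffer cells, and it stayed under 1.5-fold in 9 of the 11. Over all 23 the ratio varied by 1.05-fold to 2.30-fold, the highest being that of cholangiocytes. Several more lists outside the 11 passed 1.5-fold. They were neutrophil granule precursors (2.12-fold), plasmacytoid dendritic cells (1.92-fold), pericentral endothelium (1.88-fold), smooth muscle (1.85-fold), eosinophils (1.81-fold) and plasma cells (1.54-fold). The rest stayed under it. Neutrophil genes had ratios of 0.0766, 0.0876 and 0.0860, but without Hdc, the level member, 0.0408, 0.0648 and 0.0673, a spread of 1.65-fold. Kupffer genes were relatively high in replicate 2, at 0.888 against 0.557 and 0.574. By contrast, the hepatocyte list was 94.3, 51.0 and 18.4 times the endothelial list, a 5.13-fold spread.

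Genes of either zone of the lobule were mostly lower in replicate 3, with exceptions in each. Of the detected genes, 6 of 7 pericentral and 5 of 7 periportal ones were lower in replicate 3 than in replicate 1, beside 32.1% of all detected genes. Cyp2e1, the pericentral enzyme that oxidises acetaminophen, was at 1742, 1577 and 598 TPM and kept a ratio to Alb of 0.0350, 0.0361 and 0.0330. Glul, glutamine synthetase of the hepatocytes next to the central vein, ran the other way at 131, 281 and 356 TPM, so that its ratio to Alb went from 0.00264 to 0.00642 and 0.0196. Glul is also made by other cells, and which cells gave these reads was not tested. Among periportal genes Cyp2f2 was at 728, 479 and 121 TPM, the largest difference between replicates 3 and 1 among the detected genes of the hepatocyte lists. Pck1, the gluconeogenic enzyme gene, stood at 1501, 1655 and 1377 TPM, and Hal, which degrades histidine, at 110, 106 and 116 TPM, both nearly level while Alb was lower in replicate 3.

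Red cell genes had a pattern of their own. The 11 erythroid genes summed to 3429, 1707 and 2301 TPM, nearly all of it from globins. Hbb-bs was at 1998, 1020 and 1438 TPM, highest in replicate 1.

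Bile duct genes were weak except for 3. Tm4sf4, also a gene of hepatocytes, was at 108, 132 and 99.3 TPM, Spp1 at 26.0, 26.6 and 12.98 TPM, and Sox9 at 10.2, 22.8 and 24.2 TPM. Keratin 7, a marker of duct cells, was near 1 TPM or below (Krt7 at 0.560, 1.03 and 1.18 TPM).

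**Figure D3:**
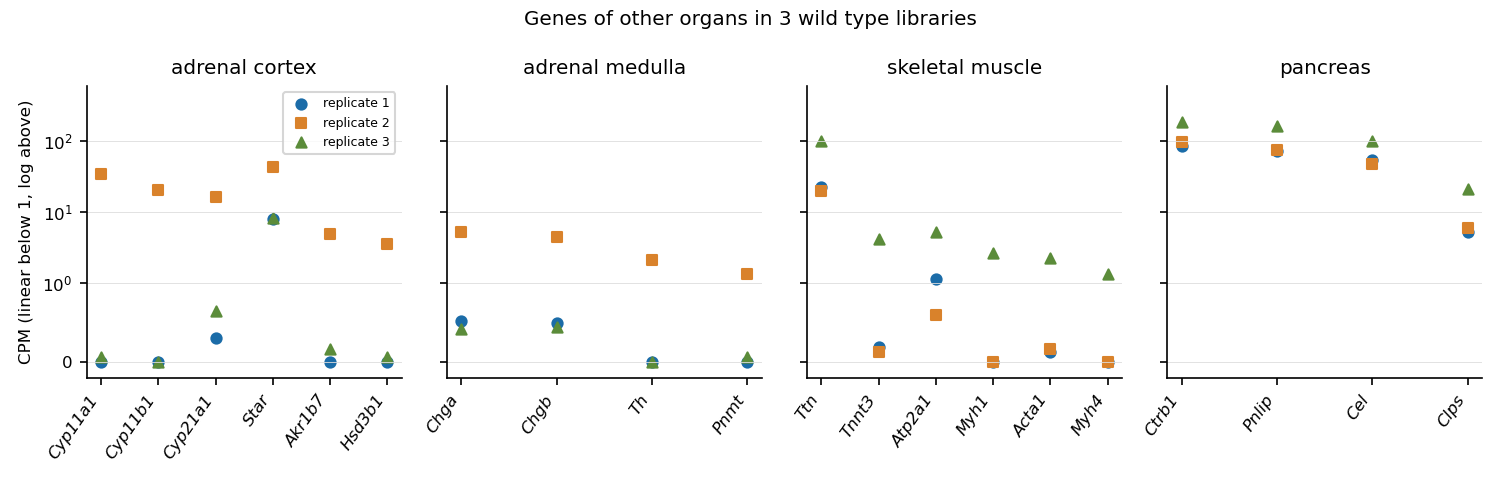
CPM of genes of 4 other tissues in the 3 wild type libraries (linear below 1, log above). The adrenal genes shown lie above 1 CPM in replicate 2 and, apart from Star, below it in replicates 1 and 3; the muscle genes shown are highest in replicate 3, and pancreatic genes are present in all 3 libraries.

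Transcripts of tissues outside the liver were present, and differed by library. The labels name liver as the tissue, and how these transcripts came into the libraries was not tested. Replicate 2 held adrenal transcripts: Cyp11a1, the enzyme that starts steroid synthesis, had counts of 0, 853 and 2, Cyp11b1, which makes corticosterone, 0, 518 and 0, and Th, of the catecholamine-making medulla, 0, 53 and 0. Replicate 3 held muscle transcripts, with counts of 0, 0 and 83 for the myosin gene Myh1, 6, 3 and 131 for the troponin gene Tnnt3 and 4, 4 and 70 for Acta1. These lists were drawn up after the values were seen, and not all members kept to the pattern: the adrenal gene Mrap was at 47.7, 75.6 and 39.5 TPM and the muscle gene Neb at 4.76, 3.94 and 4.68 TPM. Genes of pancreatic acinar cells were in every library and highest in replicate 3, where the 20 genes, all detected, summed to 850, 992 and 1904 TPM, led by the protease gene Ctrb1 at 229, 284 and 517 TPM. The pancreatic sum was thus of the same order as that of the Kupffer list.

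Among secreted factors, neutrophil-attracting chemokines were prominent. Cxcl2 (chr5:91051730-91053797, mm39) was at 76.1, 276 and 316 TPM (223 ± 128, SD, n = 3), highest in replicate 3 and 4.01-fold above replicate 1 by CPM. Its neighbour Cxcl1 (chr5:91039100-91040974, mm39), which acts on the same receptor, was at 39.1, 47.6 and 38.6 TPM, with a 1.17-fold spread. Cxcl3 was at 0.411, 3.46 and 3.01 TPM, and Cxcl5 had counts of only 0, 8 and 2. Cxcr2, the receptor of these ligands on neutrophils, was at 0.471, 1.87 and 3.15 TPM. The neighbouring genes therefore differed in spread as well as in level. Their promoters, from 250 bases before to 50 after the start (RefSeq, GRCm38.p6, so these coordinates are not those of the count files), are shown because each holds 2 matches to the NF-kB motif (GGG, any 2 bases, then TTTCC), searched on both strands and set in capitals. Of all 32851 promoters of this length 1.63% hold a match.
Cxcl1 promoter, chr5:90890995-90891294, plus strand: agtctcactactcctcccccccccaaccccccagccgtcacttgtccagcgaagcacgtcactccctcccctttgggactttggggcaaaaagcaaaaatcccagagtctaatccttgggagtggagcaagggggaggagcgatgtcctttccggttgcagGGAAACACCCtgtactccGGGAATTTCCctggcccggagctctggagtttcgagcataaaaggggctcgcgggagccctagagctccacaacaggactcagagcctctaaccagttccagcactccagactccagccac
Cxcl2 promoter, chr5:90903649-90903948, plus strand: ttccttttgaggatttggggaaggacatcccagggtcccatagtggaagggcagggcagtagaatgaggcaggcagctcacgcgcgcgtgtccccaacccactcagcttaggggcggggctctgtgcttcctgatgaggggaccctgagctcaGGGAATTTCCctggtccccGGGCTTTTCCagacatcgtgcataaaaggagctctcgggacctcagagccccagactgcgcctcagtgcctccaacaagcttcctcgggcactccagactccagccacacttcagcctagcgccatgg
The letters describe the windows only, and binding was not measured.

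**Figure D4:**
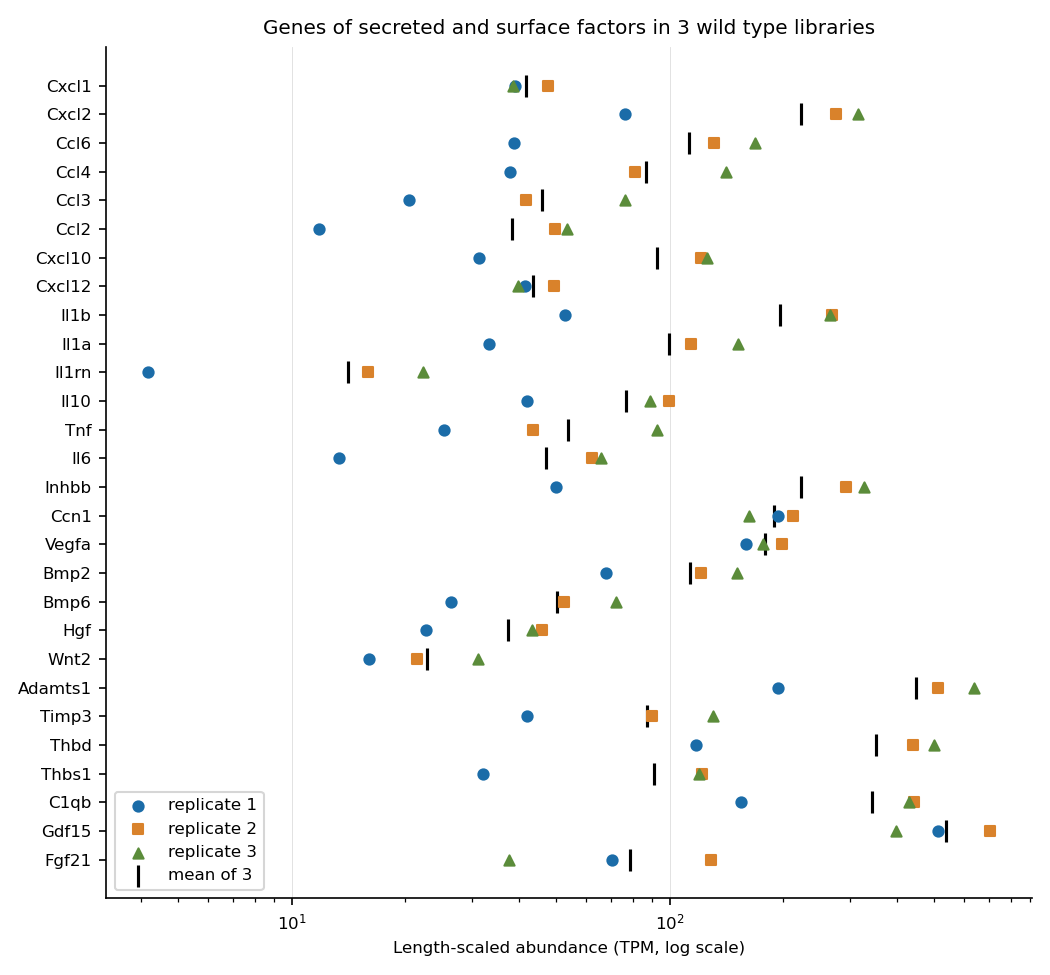
TPM (log scale) of 28 genes of secreted and surface factors in the 3 wild type libraries, with black bars for the means. Il1b, Il1rn, Cxcl2, Ccl2 and Inhbb are lowest in replicate 1 by a wide margin, whereas Cxcl1, Cxcl12, Ccn1 and Vegfa lie close together in all 3.

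CC chemokines, which draw monocytes and lymphocytes, summed to 149, 389 and 544 TPM, and 9 of 13 genes were detected. Ccl6 led at 38.7, 131 and 168 TPM, followed by Ccl4 at 37.9, 81.2 and 141 TPM and Ccl3 at 20.4, 41.7 and 76.1 TPM. The monocyte attractant Ccl2 was at 11.8, 49.8 and 53.7 TPM, far above its receptor gene Ccr2. Of the detected genes 8 of 9 were lowest in replicate 1, beside 61.5% of all detected genes. Ccl25, an intestinal and thymic chemokine, went the other way at 7.53, 5.88 and 3.54 TPM, and Ccl8 had 0 counts in every library. Cxcl10, which interferon induces, was at 31.4, 121 and 125 TPM, while Cxcl12, made by stromal cells, was nearly level at 41.4, 49.5 and 39.7 TPM.

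Interleukin 1 genes led the cytokines. Il1b was at 52.9, 269 and 266 TPM (196 ± 124, SD, n = 3) and Il1a at 33.3, 114 and 152 TPM. The antagonist gene Il1rn was at 4.18, 15.9 and 22.3 TPM, so that Il1b exceeded it 12.7, 16.9 and 11.9 times by TPM. Their receptor gene Il1r1 was at 129, 191 and 204 TPM, and Nlrp3, the sensor whose complex activates pro-interleukin 1 beta, at 17.6, 67.3 and 91.3 TPM. Ligands, antagonist and sensor were all lowest in replicate 1.

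Il10, the main anti-inflammatory cytokine of macrophages, followed at 42.0, 99.7 and 88.6 TPM, and its receptor gene Il10ra was at 6.12, 16.8 and 20.8 TPM. Tnf was at 25.2, 43.6 and 92.6 TPM, so the ratio of Tnf to Il10 was 0.600, 0.437 and 1.05 and was highest in replicate 3. Tnfrsf1a, its broadly expressed receptor gene, was at 104, 207 and 204 TPM. Il6 was at 13.4, 62.4 and 65.8 TPM, with the receptor chains Il6ra at 44.5, 48.1 and 30.1 TPM and Il6st at 101, 209 and 288 TPM. Csf3, the growth factor for neutrophils, had the lowest value of these in replicate 1, at 1.12, 14.5 and 10.4 TPM. Interferon genes themselves were close to nothing: Ifnb1 had counts of 4, 6 and 20, and Ifng of 10, 6 and 18.

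Angiocrine and growth factors, by which sinusoidal cells steer regeneration, had 26 of 34 genes detected. Inhbb, the activin B subunit, spread most among the leading ones, at 50.2, 293 and 327 TPM. Ccn1, a matrix-associated signal, at 194, 212 and 162 TPM, and Vegfa, the endothelial growth factor, at 159, 199 and 177 TPM, were level by comparison. The Vegfa receptor genes Kdr and Flt1 were at 77.3, 129 and 192 TPM and at 21.6, 45.2 and 54.8 TPM. Bmp2 and Bmp6, the endothelial signals that set hepcidin, were at 68.0, 121 and 151 TPM and at 26.3, 52.4 and 72.0 TPM, beside Hamp, the hepcidin gene of hepatocytes, at 451, 505 and 301 TPM. Hgf, the hepatocyte mitogen made by stellate cells, was at 22.7, 46.0 and 43.3 TPM, and its receptor gene Met at 12.7, 13.1 and 8.26 TPM. Hamp and Met were lowest in replicate 3, whereas Bmp2, Bmp6 and Hgf were lowest in replicate 1.

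Most genes of clotting and matrix turnover were lowest in replicate 1. Of the 16 coagulation and fibrinolysis genes, all detected, 13 were lowest in replicate 1 and 3 in replicate 3. Of all detected genes 61.5% and 26.2% were. Thbd and Thbs1, thrombospondin of platelets and stroma (32.1, 122 and 120 TPM), were lowest in replicate 1, as was Plaur, the urokinase receptor, at 16.2, 67.7 and 89.5 TPM. F10 and F5, clotting factors that hepatocytes secrete, were lowest in replicate 3, at 194, 218 and 119 TPM and at 170, 114 and 49.5 TPM. Among matrix proteases the secreted metalloproteinase gene Adamts1 was by far the highest, at 194, 513 and 639 TPM (448 ± 229, SD, n = 3). Adamts4 and Adamts9 were at 7.18, 54.6 and 69.9 TPM and at 4.85, 20.8 and 33.1 TPM. All 13 detected genes of that list were lowest in replicate 1, beside 61.5% of all detected genes.

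Complement genes differed in order: of the 10 detected, 4 were lowest in replicate 1 and 6 in replicate 3. Of all detected genes 61.5% were lowest in replicate 1 and 26.2% in replicate 3. C3, made mainly by hepatocytes, was at 3524, 3391 and 1854 TPM. The 3 genes of C1q, which macrophages make, were lowest in replicate 1: C1qb was at 154, 445 and 430 TPM, C1qa at 133, 419 and 377 TPM and C1qc at 80.3, 213 and 171 TPM. Among 13 acute phase genes, all detected, Hp led at 3298, 3911 and 1652 TPM and 11 were lower in replicate 3 than in replicate 1, beside 32.1% of all detected genes. With TMM factors all 13 were lower. Saa1 and Saa2, serum amyloid genes that rise strongly in a full acute phase response, were at 7.80, 9.21 and 4.57 TPM and at 2.22, 1.94 and 2.46 TPM.

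**Figure D5:**
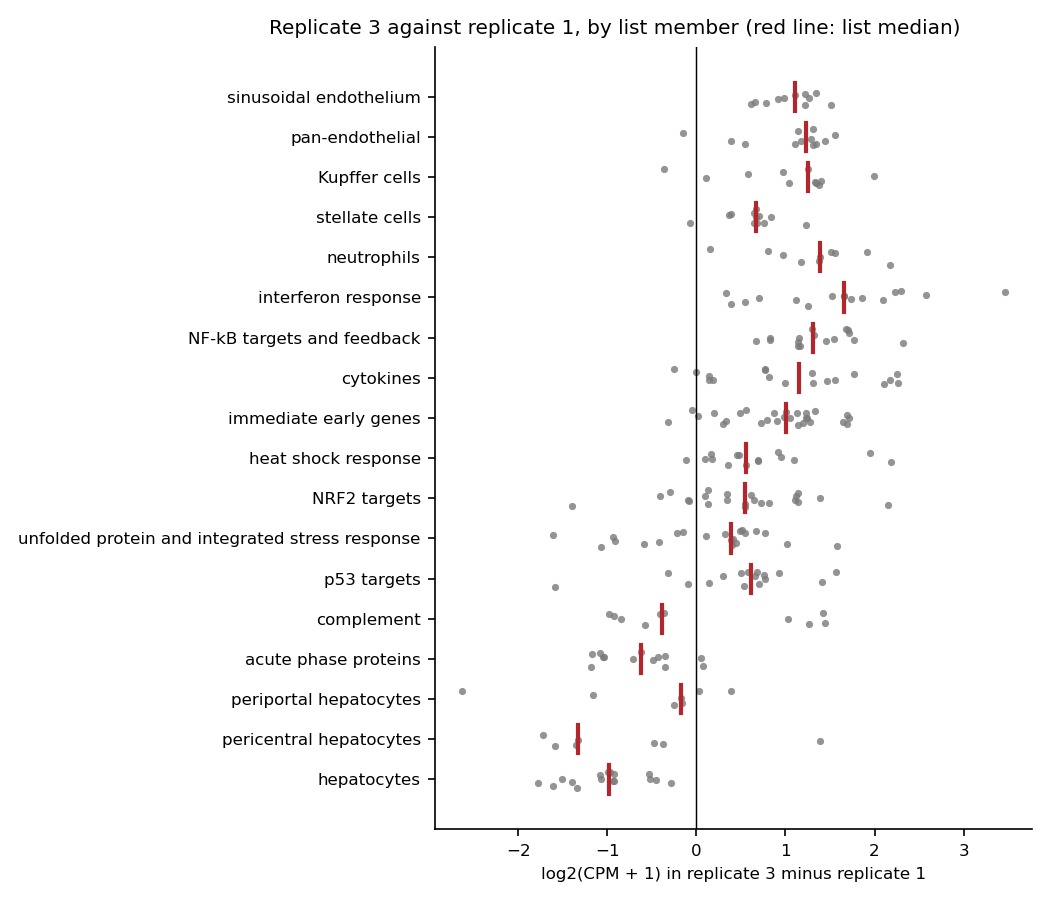
Difference in log2(CPM + 1) between wild type replicates 3 and 1 for each detected member (grey points) of 18 lists, with the list median in red. Interferon genes have a median of 1.66 and sinusoidal endothelium 1.11, NRF2 targets 0.54, and hepatocyte markers -0.98.

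Stress genes were abundant in all libraries. The largest of 10 stress lists was that of immediate early genes, the transcription factors and feedback regulators that appear within minutes of a stimulus. Its 27 genes, all detected, summed to 6028, 10217 and 9646 TPM. Jun was at 641, 973 and 832 TPM, Junb at 475, 898 and 918 TPM, Egr1 at 651, 808 and 651 TPM and Fos at 353, 652 and 604 TPM. Socs3, which limits interleukin 6 signalling, was at 196, 533 and 635 TPM. Of the 27 genes, 25 were lowest in replicate 1 by CPM and 22 with TMM factors, beside 61.5% and 41.7% of all detected genes. A CArG box, the site of serum response factor, was matched in the promoters of 2 of the 21 genes with an entry, beside 1.81% of all 27025 genes with one.

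Targets of NRF2, the factor that answers electrophiles and oxidants, summed to 5350, 8503 and 7398 TPM, with 22 of 22 detected. Hmox1, which degrades haem, was at 892, 1795 and 1417 TPM (1368 ± 453, SD, n = 3), and Gclc, the rate-limiting subunit for glutathione synthesis, at 777, 1452 and 1260 TPM. Srxn1, which restores oxidised peroxiredoxins, was at 93.4, 240 and 214 TPM. Nqo1, a target often used as a readout, was low at 6.43, 11.2 and 10.4 TPM. Ephx1, which hepatocytes express, was lowest in replicate 3 at 378, 363 and 149 TPM. The motif TGACNNNGC, the core of the antioxidant response element, was matched on either strand in 7 of 18 genes of the list with a promoter entry, beside 14.0% of all genes. The promoter of Srxn1 is shown as an example among them, and its match is in capitals.
Srxn1 promoter, chr2:152105274-152105573, plus strand: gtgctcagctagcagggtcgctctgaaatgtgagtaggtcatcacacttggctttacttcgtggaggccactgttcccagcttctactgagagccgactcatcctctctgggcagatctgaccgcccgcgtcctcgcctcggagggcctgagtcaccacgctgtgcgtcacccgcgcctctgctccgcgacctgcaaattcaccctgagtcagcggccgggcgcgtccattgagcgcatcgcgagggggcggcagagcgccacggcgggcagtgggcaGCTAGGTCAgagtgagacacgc
No entry was found for Hmox1 and Gclc.

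Metallothioneins, small proteins that bind zinc and scavenge radicals, were abundant, and Mt1 was nearly level between libraries. Mt1 (chr8:94905710-94906955, mm39) was at 1087, 1381 and 1160 TPM (1209 ± 153, SD, n = 3). Mt2 was lowest in replicate 1 at 302, 611 and 717 TPM, with 73.5% of its exonic length shared with another annotated gene, where reads were not counted. The metal response element, searched as TGCACNC and TGCGCNC on both strands, was matched in all 3 genes of the list with a promoter entry, beside 28.2% of all genes. Mt1 is shown for its 3 matches, in capitals. The second and the third lie after the start that RefSeq annotates, and where transcription starts was not tested.
Mt1 promoter, chr8:94178839-94179138, plus strand: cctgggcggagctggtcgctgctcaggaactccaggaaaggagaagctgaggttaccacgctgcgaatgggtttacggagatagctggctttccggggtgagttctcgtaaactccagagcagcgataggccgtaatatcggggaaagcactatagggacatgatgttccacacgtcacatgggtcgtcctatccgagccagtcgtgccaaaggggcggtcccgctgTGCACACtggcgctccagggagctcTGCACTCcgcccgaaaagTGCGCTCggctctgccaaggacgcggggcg
Such short letters are common, as the share over all genes shows.

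Heat shock genes summed to 1344, 2372 and 2570 TPM, with 15 of 15 detected. Hsp90ab1, a constitutive chaperone, led at 455, 898 and 1010 TPM, and Hspa8 was at 261, 385 and 372 TPM. The strictly inducible chaperones spread more: Hspa1b (chr17:35175412-35178214, mm39) was at 79.7, 227 and 322 TPM and Hspa1a (chr17:35188166-35191132, mm39) at 29.3, 84.6 and 141 TPM, so that Hspa1b relative to Hspa8 went from 0.305 to 0.589 and 0.866. These genes are near-identical copies, and reads that matched both were not counted, so the level of each is uncertain. The heat shock element, searched as GAANNTTC and TTCNNGAA, was matched in 9 of 11 genes of the list with a promoter entry, beside 17.0% of all genes. The pair is shown because 296 of 300 bases agree by position, and each has 1 match, in capitals, at the same place.
Hspa1a promoter, chr17:34972107-34972406, minus strand: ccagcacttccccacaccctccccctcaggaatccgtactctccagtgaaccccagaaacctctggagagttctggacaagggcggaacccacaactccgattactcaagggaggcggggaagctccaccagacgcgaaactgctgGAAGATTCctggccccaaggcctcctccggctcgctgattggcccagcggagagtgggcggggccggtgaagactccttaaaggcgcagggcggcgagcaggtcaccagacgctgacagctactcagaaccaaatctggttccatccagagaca
Hspa1b promoter, chr17:34959189-34959488, minus strand: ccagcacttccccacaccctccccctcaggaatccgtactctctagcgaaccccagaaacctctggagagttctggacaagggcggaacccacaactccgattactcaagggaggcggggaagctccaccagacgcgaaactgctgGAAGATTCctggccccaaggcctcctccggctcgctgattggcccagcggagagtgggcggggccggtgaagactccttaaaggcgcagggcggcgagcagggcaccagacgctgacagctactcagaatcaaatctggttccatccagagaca
Bag3, a co-chaperone that is induced with them, was at 44.1, 88.4 and 86.9 TPM.

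The unfolded protein and integrated stress response was mixed across libraries. Gdf15, a stress hormone, was the highest of its 21 genes at 514, 704 and 397 TPM, and Atf3 was at 322, 482 and 470 TPM. Herpud1, which serves degradation of misfolded proteins, was at 419, 289 and 141 TPM, and Fgf21, a liver hormone, at 70.4, 129 and 37.6 TPM. Ppp1r15a, which restarts translation, went the opposite way to Herpud1 at 103, 261 and 317 TPM. Of the 21 genes, 13 were higher in replicate 3 than in replicate 1, beside 67.9% of all detected genes, and 15 were higher in replicate 2 than in replicate 1, beside 71.3%.

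Among p53 targets the kinase gene Plk3 was highest, at 1077, 1284 and 1047 TPM, and the cell cycle inhibitor Cdkn1a was at 118, 225 and 234 TPM. Trp53inp1 was at 324, 222 and 111 TPM and, like most hepatocyte genes, was lowest in replicate 3. Mdm2, the p53 antagonist, was at 85.6, 141 and 145 TPM. Inducers of apoptosis were lower, with Bbc3 at 24.4, 46.4 and 41.3 TPM and Bax at 15.7, 21.9 and 25.0 TPM, beside the survival gene Mcl1 at 156, 342 and 447 TPM. Of the genes of necroptosis, Ripk3 was at 5.42, 12.1 and 11.9 TPM and Mlkl at 6.95, 15.3 and 26.8 TPM.

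Genes of the NF-kB and interferon lists were lowest in replicate 1. All 16 NF-kB targets and all 16 interferon-response genes had their lowest value there, beside 61.5% of all detected genes, and the same counts held with TMM factors, beside 41.7%. The NF-kB list summed to 557, 1277 and 1424 TPM. Nfkbia, the inhibitor of NF-kB that NF-kB itself induces, was at 156, 373 and 406 TPM, and Icam1, an adhesion molecule for leukocytes, at 28.4, 80.9 and 97.7 TPM. Matches to the NF-kB motif were found in 4 of 12 genes with a promoter entry, beside 1.89% of all genes. Nfkbia is shown as the most abundant gene of the list.
Nfkbia promoter, chr12:55492598-55492897, minus strand: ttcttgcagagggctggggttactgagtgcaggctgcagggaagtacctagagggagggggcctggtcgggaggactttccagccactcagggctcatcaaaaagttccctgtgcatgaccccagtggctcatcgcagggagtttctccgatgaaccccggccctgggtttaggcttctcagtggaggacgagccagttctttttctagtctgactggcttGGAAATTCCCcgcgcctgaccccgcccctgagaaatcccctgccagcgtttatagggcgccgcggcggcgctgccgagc
Its single match, in capitals, is on the reverse strand.

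The interferon list had the wider spread, with sums of 153, 410 and 546 TPM. Isg15, a ubiquitin-like protein, was at 15.0, 55.2 and 89.5 TPM, and Ifit2, which binds foreign RNA, at 4.72, 28.9 and 60.0 TPM. Relative to the sinusoidal endothelium list, the interferon list was at 0.150, 0.232 and 0.242 and the NF-kB list at 0.545, 0.722 and 0.630. Heat shock genes kept a ratio of 1.32, 1.34 and 1.14 to the same list.

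Of 25 sensors of damage and pathogens 21 were detected, and 20 of these were lowest in replicate 1, beside 61.5% of all detected genes. Cd14, the coreceptor for bacterial lipopolysaccharide, led at 147, 479 and 409 TPM. Tlr4 was at 2.29, 3.79 and 4.78 TPM, and the formyl peptide receptor Fpr1 at 7.54, 22.7 and 19.2 TPM.

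The genes that varied most and least between the libraries were found among 8028 named genes with a mean of at least 10 CPM. The 10 with the largest range were Cyp11a1, Ifit2, Akap12, Adamts4, Marco, Cyp4a12a, Adamts9, Nes, Inhbb and Cyp2f2. Akap12, a scaffold for protein kinase A, was at 45.0, 257 and 420 TPM, and Nes, an intermediate filament gene, at 6.47, 28.4 and 44.4 TPM. Cyp4a12a, a hepatocyte hydroxylase of male mice, was at 70.3, 39.2 and 10.3 TPM. All of the 10 but Cyp4a12a and Cyp2f2 were lowest in replicate 1, and that pair was highest there. Of all detected genes 61.5% were lowest and 22.2% highest in replicate 1. For Cyp11a1 the counts of 0 and 2 in replicates 1 and 3 are under the floor of 6 counts, so these libraries cannot be ordered. The 10 with the smallest range included Cdadc1, Nup205, Tmem167, Echs1, Gtpbp2 and Ndrg2, of which Ndrg2 was the most abundant at 314, 313 and 311 CPM.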

How the data were processed

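The 3 wild type libraries were grouped by their titles. Libraries were made with the KAPA total RNA kit and ribosomal RNA depletion, per the labels' protocols. FastQC, STAR and featureCounts were used with build mm39, per the submitters' processing notes. The deposited values are raw counts per gene, not normalized and not pooled, which the authors made with featureCounts 2.0.2 over exons of GENCODE vM26, unstranded, per the file headers. The sources used here do not give the aligner's version or any trimming. The command did not ask for read pairs, so mates were counted singly, and even values made up 70.3% to 71.9% of counts between 1 and 4 (for counts between 21 and 100, 53.8% to 55.6%). Reads that mapped to several places or genes were not counted, which lowers genes with near-identical copies (Hspa1a and Hspa1b, globins, Mup and Serpina1 genes, mt-Co2 at 119 to 187 TPM, Gapdh) and overlapping genes (Mt2, Cfb, Jund, Folr2). Without strand, antisense reads cannot be told apart.

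CPM and TPM were computed from these counts and the files' gene lengths in Python 3.11.15. The summed exon length understates genes whose main transcript is short. The coefficient of variation came from edgeR 4.0.16 (R 4.3.3, intercept only, TMM factors of 0.883 to 1.09, 18341 genes passing filterByExpr). The calculation was checked on simulated counts, drawn independently for each gene with a known spread. These lack the library differences that many genes share here, so the check does not cover them. No group was compared, so no p-value was computed. Alternatives were scaling by TMM factors, other filters, denominators and lengths, and each library left out. Size factors from DESeq2 1.42.0 were an alternative for the coefficient of variation only. Floors are 6 counts per library and cover counting error only.

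All 627 symbols of 51 lists matched. Members and lists were chosen with earlier results of these data known. The rule named Msr1, the 20 most abundant nuclear genes, the 10 with the largest and the 10 with the smallest range of log2 CPM at a mean of 10 CPM or more, up to 4 leading members per list, members at 0 counts, and the 2 most variable of each secreted or stress list. Receptors set beside their ligands, and further list members, were named after their values were seen. Some results the rule names are not reported here.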

Additional observations from a re-analysis of the deposited data

How the results depend on the processing

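Of the summary values beside the list sums, 6 moved by more than 1.5 times or the spread between libraries under another setting. With 5 CPM required in each library, 9753 genes were detected in place of 14792. Without mitochondrial genome genes 126 genes, and by CPM 248, held 50% of the abundance, in place of 19. Without Alb the hepatocyte list took 3.04% of counts in place of 6.63%. Mitochondrial genes made up 28.7% of the length-scaled abundance. Ranked by CPM, 11 of the 20 most abundant nuclear genes remained. With each library left out in turn, the number of genes detected was 15030 to 15424, the number holding 50% of abundance 14 to 26, the hepatocyte share 5.56% to 8.08%, the mitochondrial share 13.03% to 18.0% and the coefficient of variation 0.202 to 0.361, against 0.281 with all. Many list sums rest on a single gene: without its most abundant member 30 of 51 sums moved, 26 of them by over 1.5 times, among them pericentral endothelium (402 to 49.8 TPM), CXC chemokines (267 to 44.2 TPM) and stellate cells (609 to 281 TPM). Without mitochondrial genes 36 sums moved, by 1.37 to 1.45 times over all lists. Replicate 1 was lowest in 42 of 51 lists, in 38 with TMM factors and in 40 without mitochondrial genes. Chosen after seeing the data, a denominator without mitochondrial, hepatocyte and ribosomal RNA genes raised every one of the 48 lists left by 1.95 to 2.07 times, by its construction, and left replicate 1 lowest in 40. The neutrophil list without Hdc and the ratios of all 23 lists were also chosen after seeing the data. No paired analysis was possible because the values describe 1 group and come from no test. With 3 libraries no spread is precise, and lists near the floor (mast cells, eosinophils, lymphocytes) rest on few counts.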
